A study of Mus musculus with 12 samples.

Results

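The 48 genes described here encode proteins of the G2 phase and of mitosis, among them mitotic kinases, kinesins, kinetochore, spindle and cytokinesis proteins. They were chosen by gene symbol from a list of such genes, with earlier results of these data known, and all 48 were among the 19752 genes measured. Each of the 48 lay above the array median in all 12 arrays. RNA came from splenic CD4+ T cells of male C57BL/6 mice aged 6 weeks, enriched by negative selection, and was hybridised to Affymetrix Mouse Gene 1.0 ST arrays. All groups shared activation for 48 h with CD3/CD28 beads. The groups were IL-12 at 100 U/ml for 2 h (5 arrays, numbered 2 to 6 in the titles), IL-12 at 100 U/ml for 8 h (4 arrays, numbered 2, 3, 5 and 6), untreated cells at 2 h (2 arrays, numbered 7 and 8) and a baseline (1 array, numbered 5). The baseline label gives no culture time, and no untreated group stands at 8 h. IL-12 and time in culture therefore cannot be told apart in any comparison with the 8 h group.

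A dividing cell enters mitosis when cyclin-dependent kinase 1, bound to cyclins A and B, is switched on by CDC25 phosphatases. Aurora and Polo-like kinases then drive spindle assembly, the spindle checkpoint holds the chromosomes until each is attached, and the anaphase-promoting complex with CDC20 releases them. Many genes of this programme are transcribed late in the cell cycle through 2 short promoter elements, the cell cycle genes homology region (CHR), bound by the DREAM and MuvB complexes, and the CCAAT box, bound by NF-Y. T cells activated through CD3 and CD28 divide repeatedly, so that cells in all phases of the cycle are present. In RNA from whole cultures, more cells in mitosis and more of a transcript per cell cannot be told apart.

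Values are log2 intensities, 1 probe set per gene, and a level is compared only with the same gene on other arrays. Calls rest on limma's two-sided test, with p-values adjusted by Benjamini and Hochberg's method across the 19752 genes and a threshold of 0.05, whatever the fold. Changes are log2 differences ± SE from a model with the 4 groups and a term for the run of title numbers, 2 to 4 or 5 to 8. The labels do not say what the numbers stand for. Nor do they say whether replicate arrays stand for separate animals or cultures, so the p-values reflect no more than the spread among these arrays, part of which may be technical. The number of arrays limits the precision: over the 48 genes the median SE was 0.091 for each comparison of an IL-12 group with untreated cells and 0.066 between the IL-12 groups. All 5 measured T cell markers and Cd4 lay above the array median on every array. So did Cd8b1, Cd79b, Eomes, Cd68 and Itga2b, from the marker lists of other cell types, so this position does not show purity.

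The promoters of the genes that the 8 h results turn on are shown first, to show where the 2 elements of this programme are present or absent in them. Of the 9 genes with the smallest p in IL-12 8 h against untreated cells, 6 had an entry among the RefSeq promoter sequences (GRCm38.p6). The 250 bases before the annotated start are printed 5′ to 3′ on the gene's strand. Capitals mark the CHR element (TTTGAA or TTTAAA) and the CCAAT box (CCAAT), read on both strands, so that TTCAAA and ATTGG are the same elements on the other strand.
Cdc20: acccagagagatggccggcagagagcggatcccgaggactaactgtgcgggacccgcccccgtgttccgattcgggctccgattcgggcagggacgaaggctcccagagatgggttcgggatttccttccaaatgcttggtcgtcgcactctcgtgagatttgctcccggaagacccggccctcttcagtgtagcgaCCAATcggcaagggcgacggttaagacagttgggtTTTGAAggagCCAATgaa
Kif22: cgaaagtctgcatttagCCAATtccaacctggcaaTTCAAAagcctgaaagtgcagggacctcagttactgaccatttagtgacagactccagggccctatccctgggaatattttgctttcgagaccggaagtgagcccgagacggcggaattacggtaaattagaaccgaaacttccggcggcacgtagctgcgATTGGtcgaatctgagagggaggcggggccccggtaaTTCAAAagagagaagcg
Espl1: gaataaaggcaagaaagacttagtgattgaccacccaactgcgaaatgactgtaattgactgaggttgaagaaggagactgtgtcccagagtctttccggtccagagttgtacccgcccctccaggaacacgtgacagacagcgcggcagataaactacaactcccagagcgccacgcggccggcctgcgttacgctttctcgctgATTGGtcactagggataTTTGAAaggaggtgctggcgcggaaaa
Bub1b: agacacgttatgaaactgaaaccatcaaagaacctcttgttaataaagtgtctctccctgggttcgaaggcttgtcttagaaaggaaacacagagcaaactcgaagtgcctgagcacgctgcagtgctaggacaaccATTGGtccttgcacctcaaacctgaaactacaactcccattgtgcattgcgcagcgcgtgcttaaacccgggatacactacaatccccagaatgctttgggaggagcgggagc
Cdc25b: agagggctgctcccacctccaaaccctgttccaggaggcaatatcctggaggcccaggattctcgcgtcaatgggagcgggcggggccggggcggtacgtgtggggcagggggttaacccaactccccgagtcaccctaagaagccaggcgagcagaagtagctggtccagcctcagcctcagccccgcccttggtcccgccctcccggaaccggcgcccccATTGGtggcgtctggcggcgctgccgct
Birc5: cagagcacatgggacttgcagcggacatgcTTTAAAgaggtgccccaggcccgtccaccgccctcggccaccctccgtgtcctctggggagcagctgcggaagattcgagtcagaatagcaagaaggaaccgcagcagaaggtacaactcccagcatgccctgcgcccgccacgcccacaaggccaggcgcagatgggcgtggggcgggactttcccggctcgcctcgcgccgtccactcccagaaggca
These windows lie at chr4:118437344-118437593 on the minus strand for Cdc20, chr7:127042421-127042670 on the minus strand for Kif22 and chr15:102296043-102296292 on the plus strand for Espl1. Those of Bub1b, Cdc25b and Birc5 lie on the plus strand at chr2:118597961-118598210, chr2:131186698-131186947 and chr11:117848987-117849236. Cdc20 carried a CHR element 18 bases before the start, with CCAAT boxes 53 and 8 bases before it. Kif22 carried the CHR element 17 bases and a CCAAT box 54 bases before the start, and a further pair farther out. In Espl1 the elements lay 27 and 44 bases before the start. Bub1b had a CCAAT box at 113 bases and no CHR element in the printed window, though it had 1 at position 41 after the start. Cdc25b held a CCAAT box at 28 bases and Birc5 a CHR element at 220 bases.

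Over the whole group, 41 of 48 genes matched the promoter table, with 44 entries. In the 300 bases from 250 before to 50 after the start, 38 of the 44 (86.4%) held a CHR element, against 27.6% of the 32851 promoters of the table, which also holds non-coding genes. A CCAAT box was found in 36 of 44 (81.8%), against 37.4% of all. Both elements stood together in 75.0% of the members' windows and in 10.7% of all. Within 50 bases on either side of the start, the CHR element was in 75.0% of the members' entries and in 8.28% of all. The E2F core, TTCCCGC or TTGGCGC, a motif of genes transcribed earlier in the cycle, was in 5 of 44 (11.4%), against 6.81% of all. Matches of different motifs overlapped in 3 places in the members' windows. Both kinds of gene in the comparison described next carried them: a CHR element was in 17 of 19 genes with an entry that were called higher at 8 h than at 2 h of IL-12, and in 18 of the other 22, and a CCAAT box in 17 and 16. A match is a description of the letters, and binding was not measured. The promoters of Ccna2, Cdc25c, Aurkb, Kif20a, Tpx2, Dlgap5 and Cdca2 were not in the table used.

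The mitosis genes were higher at 8 h than at 2 h of IL-12. Of the 48, 25 were called higher and 0 lower, where 12.6% of all genes tested were called, 6.27% higher and 6.36% lower. The change was above 0 in 47 of the 48, with a median of 0.22 and a range from -0.13 to 0.61. The largest, that of Cdc25c, was 1.53-fold. In 19 of the 48 every 8 h array exceeded every 2 h array of both number runs, which held for 3.98% of all genes. Among arrays 2 to 4 this held for 44 members (21.6% of all genes) and among arrays 5 to 8 for 31 (21.9% of all genes). It held within each of the runs for 30 members (8.83% of all genes). A fit with the title number as a block, which assumes that same-numbered IL-12 arrays are pairs, called 14 of the 48, all of them among the 25. The fit without the run term called 13, and arrays 5 to 8 alone gave 3 calls, Cdc20, Kif22 and Ccnf. The share of all genes called in these alternative fits is not given, so the lower counts cannot be set beside a general loss of calls. Of the 25, 16 were called in each of 12 fits that left out 1 array.

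Averaged over the 48 genes, after each gene was set to 0 at its mean over the 12 arrays, the 8 h arrays stood above all others. Arrays 2, 3, 5 and 6 at 8 h had mean log2 values of 0.150, 0.163, 0.172 and 0.102. The IL-12 2 h arrays 2 to 6 had -0.109, -0.138, -0.157, -0.065 and -0.016, the untreated arrays -0.127 and -0.030, and the baseline array 0.054. The same mean over all genes stayed between -0.032 and 0.011. Between 37 and 47 of the 48 genes exceeded their own 12-array mean in each 8 h array, and between 6 and 21 did so in each 2 h array with or without IL-12.

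**Figure D1:**
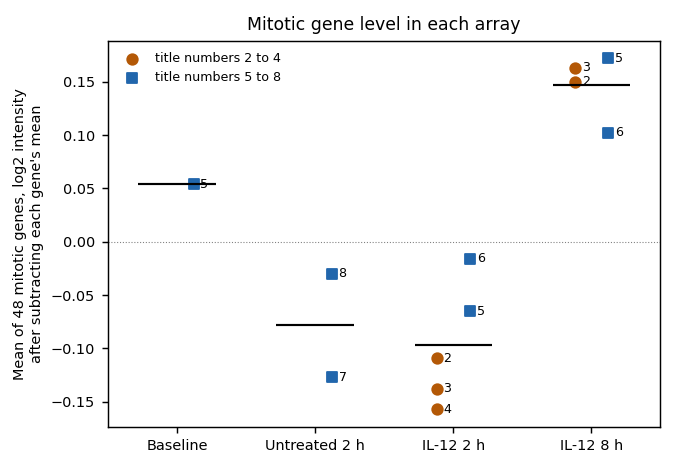
Mean over the 48 genes of log2 intensity after each gene's 12-array mean was subtracted, with 1 point per array, labelled by its title number; circles are numbers 2 to 4, squares are numbers 5 to 8, and bars are group means. The 4 IL-12 8 h arrays lie between 0.102 and 0.172, and the 2 h arrays, with and without IL-12, between -0.157 and -0.016.

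Among the regulators of chromosome release, 3 of 4 were higher at 8 h than at 2 h. Cdc20 encodes the activator that directs the anaphase-promoting complex to its mitotic targets. Its log2 intensity was 10.47, 10.52, 10.53, 10.07 and 10.06 in IL-12 2 h arrays 2, 3, 4, 5 and 6, and 11.01, 11.02, 10.59 and 10.69 in IL-12 8 h arrays 2, 3, 5 and 6. It was 10.15 and 10.05 in untreated arrays 7 and 8 and 10.74 at baseline. All 8 h arrays lay above all 2 h arrays, but those of the later number run only narrowly exceeded the 2 h arrays of the earlier one. The change was 0.54 ± 0.05 (limma, adjusted p = 1.92e-05), the smallest p of the 48. Cdca3, which takes part in the ubiquitin-dependent removal of a mitotic inhibitor, had 10.53, 10.53, 10.59, 10.64 and 10.50 at 2 h, in the same array order, and 10.91, 10.92, 10.83 and 10.79 at 8 h. Untreated arrays had 10.55 and 10.56 and the baseline 10.83. The 2 time points did not overlap, with a change of 0.31 ± 0.06 (limma, adjusted p = 0.00219). Espl1, the separase that cuts cohesin, changed by 0.35 ± 0.07 (adjusted p = 0.00298). Ube2c, the ubiquitin-conjugating enzyme of the complex, did not pass, at 0.12.

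Of the cyclins, Cdk1 and its phosphatases, 4 of 6 were called higher. The 2 phosphatases had the largest changes of all 48 genes. Cdc25c had 8.29, 8.04, 8.17, 8.07 and 8.19 at 2 h, 8.88, 8.88, 8.42 and 8.82 at 8 h, 7.91 and 8.32 untreated and 8.73 at baseline. Every 8 h array exceeded every array taken at 2 h, with array 5 the lowest of the 8 h group. Its change was 0.61 ± 0.10 (limma, adjusted p = 0.00104). Cdc25b had 10.14, 10.01, 10.00, 10.88 and 10.60 at 2 h and 10.84, 10.65, 11.14 and 11.14 at 8 h, with 10.84 and 10.71 untreated and 10.64 at baseline. Here the number runs differed as much as the times, so that the 2 groups overlapped when runs were put together and did not overlap within either run. The change was 0.56 ± 0.08 (limma, adjusted p = 0.00042), and it was 0.70 within arrays 2 to 4 and 0.40 within arrays 5 to 8. Ccnf, which encodes the cyclin F subunit of a ubiquitin ligase, had 10.41, 10.35, 10.28, 10.18 and 10.05 at 2 h and 10.61, 10.65, 10.53 and 10.64 at 8 h. Untreated arrays had 10.25 and 10.20, below every 8 h array, and the baseline had 10.58. The change was 0.37 ± 0.06 (limma, adjusted p = 0.00142). Ccnb2, a cyclin B partner of Cdk1, changed by 0.25 (adjusted p = 0.0249). Cdk1 itself, the kinase that starts mitosis, stood at 0.03 (adjusted p = 0.867) and Ccna2, cyclin A, at 0.15 (adjusted p = 0.0961). Neither passed the test.

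Of the mitotic kinases and checkpoint genes, 4 of 7 were called higher. Bub1b, which encodes the checkpoint kinase-like protein BubR1, had 10.56, 10.42, 10.50, 10.50 and 10.61 at 2 h, 11.11, 11.09, 10.96 and 10.92 at 8 h, 10.40 and 10.65 untreated and 11.06 at baseline. The 8 h and baseline arrays lay apart from all 2 h arrays. Its change was 0.51 ± 0.07 (limma, adjusted p = 0.000297). Nek2, a centrosome kinase, changed by 0.35 (adjusted p = 0.00516), Plk1, the Polo-like kinase, by 0.23 (adjusted p = 0.0173) and Ttk, the checkpoint kinase Mps1, by 0.25 (adjusted p = 0.0457). Aurka, the centrosomal Aurora kinase, at 0.15, Melk at 0.17 and Bub1 at 0.14 did not pass. In the chromosomal passenger complex, which corrects faulty attachments, 2 of 3 passed. Birc5, its survivin subunit, had 10.29, 10.23, 10.33, 10.00 and 10.00 at 2 h, 10.51, 10.60, 10.34 and 10.29 at 8 h, 9.85 and 10.07 untreated and 10.35 at baseline. Its 2 times overlapped across the number runs and not within them, with a change of 0.29 ± 0.06 (limma, adjusted p = 0.0052). Aurkb, the kinase of the complex, changed by 0.23 (adjusted p = 0.0121), and Cdca8, which encodes borealin, stood at 0.15 without passing.

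The mitotic kinesins, motors that move chromosomes and spindle microtubules, had 5 of 8 members called higher and held the 1 gene with a negative change. Kif22, a chromosome-bound kinesin, had 9.87, 9.91, 9.84, 9.45 and 9.42 at 2 h, 10.35, 10.37, 10.02 and 9.92 at 8 h, 9.55 and 9.54 untreated and 10.08 at baseline. All 8 h arrays were above all 2 h arrays, narrowly so for array 6. The change was 0.51 ± 0.05 (limma, adjusted p = 2.45e-05). Kif2c, a microtubule depolymeriser at centromeres, had 10.00, 9.97, 9.81, 9.75 and 9.88 at 2 h, 10.36, 10.45, 10.25 and 10.19 at 8 h, 9.90 and 10.05 untreated and 10.16 at baseline. Its groups did not overlap, and the change was 0.44 ± 0.06 (limma, adjusted p = 0.000385). Kif20a, a kinesin of the central spindle, had 10.98, 10.94, 10.94, 11.11 and 10.89 at 2 h, 11.37, 11.44, 11.50 and 11.34 at 8 h, 11.08 and 10.97 untreated and 11.09 at baseline. Its 8 h arrays stood clear of all the others, with a change of 0.43 ± 0.06 (limma, adjusted p = 0.000411). Kif14, which works in cytokinesis, changed by 0.26 and Kif4, a chromokinesin, by 0.24. Kif23, the motor of the centralspindlin complex, had 10.95, 11.02, 10.96, 11.06 and 11.00 at 2 h, 10.87, 10.79, 11.05 and 10.81 at 8 h, 10.95 and 10.82 untreated and 10.82 at baseline. Its change of -0.13 did not pass (limma, adjusted p = 0.238), and 8 h array 5 lay among the 2 h arrays. Kif11, the motor that separates the spindle poles, at 0.06, and Kif15 at 0.17 did not pass either.

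Kif23 and Racgap1 encode the 2 partners of centralspindlin, and their values differed in sign. Racgap1 had 10.60, 10.65, 10.55, 10.82 and 10.84 at 2 h, 11.08, 11.08, 11.16 and 11.19 at 8 h, 10.96 and 10.93 untreated and 11.11 at baseline. It was the only cytokinesis gene of 4 that passed, at 0.42 ± 0.05 (limma, adjusted p = 0.000155), with no overlap between 8 h and 2 h arrays. Prc1, which bundles central spindle microtubules, stood at 0.10, Anln, the contractile ring protein anillin, at 0.11, and Ect2, the RhoA activator, at 0.00 (adjusted p = 0.996).

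Of the spindle assembly genes, 4 of 8 were called higher. Tpx2, an activator of Aurora A and a microtubule nucleation factor, had 10.74, 10.60, 10.62, 10.77 and 10.79 at 2 h, 10.97, 11.00, 11.16 and 11.12 at 8 h, 10.63 and 10.85 untreated and 10.96 at baseline. Its 8 h arrays all lay above the others at 2 h, and the change was 0.34 ± 0.06 (limma, adjusted p = 0.00163). Dlgap5, which stabilises kinetochore fibres, had 10.25, 10.04, 10.14, 10.13 and 10.25 at 2 h, 10.57, 10.66, 10.51 and 10.48 at 8 h, 10.15 and 10.42 untreated and 10.42 at baseline. It changed by 0.39 ± 0.07 without overlap of the IL-12 groups (limma, adjusted p = 0.00233). Hmmr, a microtubule-binding protein, changed by 0.35 (adjusted p = 0.0074) and Ckap2l, a spindle protein, by 0.21 (adjusted p = 0.0241). Nusap1, Gtse1, Aspm and Ckap2 had changes of 0.15, 0.17, 0.08 and 0.21 that did not pass.

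Of the kinetochore genes, 1 of 5 was called higher. Cenpf, a large protein of the outer kinetochore, had 9.51, 9.39, 9.45, 9.59 and 9.75 at 2 h, 9.97, 9.96, 9.94 and 9.66 at 8 h, 9.30 and 9.66 untreated and 9.70 at baseline. The 8 h array 6 fell among the 2 h arrays, and the change was 0.34 ± 0.10 (limma, adjusted p = 0.0298). The NDC80 complex, which binds microtubules, was represented by Ndc80 at 0.02, Nuf2 at 0.07 and Spc25 at 0.15, and Cenpe, a kinetochore motor, stood at 0.19. None of these 4 passed. Of 3 genes of chromosome structure, Cdca2, which targets a phosphatase to chromatin, passed, with 9.70, 9.62, 9.67, 9.63 and 9.65 at 2 h, 9.76, 9.84, 9.96 and 10.01 at 8 h, 9.58 and 9.82 untreated and 9.89 at baseline. Its IL-12 groups did not overlap, at 0.23 ± 0.07 (limma, adjusted p = 0.0325). The proliferation marker Mki67 stood at 0.09 (adjusted p = 0.344) and Top2a, the topoisomerase that untangles chromosomes, at 0.12 (adjusted p = 0.482).

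**Figure D2:**
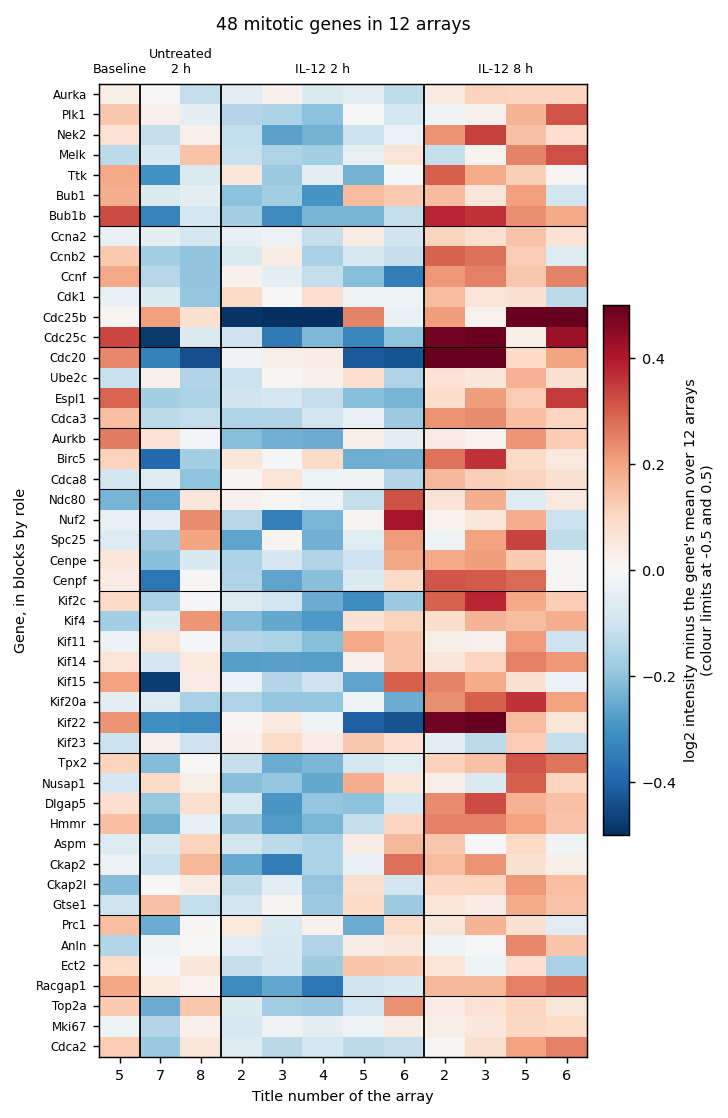
Log2 intensity of each of the 48 genes minus its mean over the 12 arrays (colour, red above and blue below, limited at -0.5 and 0.5), with genes in rows by role and arrays in columns by group and title number. Most rows are red in the 8 h columns, where 37 to 47 of the 48 genes exceed their own mean in each array.

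The calls with the largest p were not stable to the removal of arrays. Ttk, Ccnb2, Cenpf, Kif4, Ckap2l and Cdca2 lost the call in 5 to 7 of the 12 fits that each left out 1 array. Without IL-12 8 h array 3 Plk1 and Kif14 lost it, and without IL-12 8 h array 2 Aurkb did. Each of the 9 IL-12 arrays ended at least 1 of these calls. These 9 genes, with Nek2 and Hmmr, are also the 11 that the fit with the number as a block did not call.

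Against untreated cells at 2 h, the 8 h arrays were again higher, with 8 members called higher and 0 lower, where 3.16% of all genes were called, 1.04% higher and 2.13% lower. All 48 changes were positive, though 8 uncalled members turned negative in at least 1 alternative setting, with a median of 0.23 against -0.009 over all genes, and a range from 0.02 to 0.57. This comparison shares its 8 h arrays with the one against IL-12 2 h, and the 8 genes are also called there. They were Cdc20 at 0.52 ± 0.07 (limma, adjusted p = 0.0011), Kif22 at 0.41 ± 0.07 (adjusted p = 0.00527), Bub1b at 0.48 ± 0.10 (adjusted p = 0.013), Tpx2 at 0.39 ± 0.08 (adjusted p = 0.0172) and Kif20a at 0.40 ± 0.09 (adjusted p = 0.0188). Birc5 at 0.34 ± 0.08 (adjusted p = 0.0363), Cdc25c at 0.57 ± 0.14 (adjusted p = 0.0373) and Cdc25b at 0.45 ± 0.11 (adjusted p = 0.0431) were nearer the threshold. Espl1, at 0.34, just missed it (adjusted p = 0.0555). Every untreated array has a number from 5 to 8, and within these numbers both 8 h arrays lay above both untreated arrays for 33 members, which held for 18.9% of all genes. The within-run median of the members was 0.21, with 46 of 48 positive. Of the cell type markers, Klrb1c of the NK list was called in this comparison, lower at 8 h, at a log2 of -0.88 (limma, adjusted p = 0.000279). Lyz2 stood at -0.78 (adjusted p = 0.109), Eomes at -0.71 (adjusted p = 0.058), and all 5 dendritic cell markers were negative without a call. The 12 macrophage markers summed to 1372 to 1630 in 8 h arrays 5 and 6 against 1864 to 2122 in untreated arrays. In the same arrays the 4 NK markers summed to 442 to 529 against 611 to 658. Eomes was the brightest of the 4 on each of these arrays and so formed the largest part of that sum. Ncr1 of the NK list went the other way, at 0.18, and Klra8 stood at -0.02, both without a call. The part of these cell types in the members' differences was not tested.

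The number of calls against untreated cells rested on single arrays. It dropped to 2 when untreated array 7 was left out and to 5 when untreated array 8 was. Leaving out IL-12 8 h array 5 gave 4, and the count was 5 without each of IL-12 2 h arrays 2, 3 and 4 and IL-12 8 h array 3. Only Cdc20 was called in every such fit. Without the run term 2 members were called, Bub1b and Kif20a, and Cdc20 was not (limma, adjusted p = 0.0555). Among arrays 5 to 8 alone 1 member was called, Cdc20. For these fits too, the share of all genes called is not given.

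**Figure D3:**
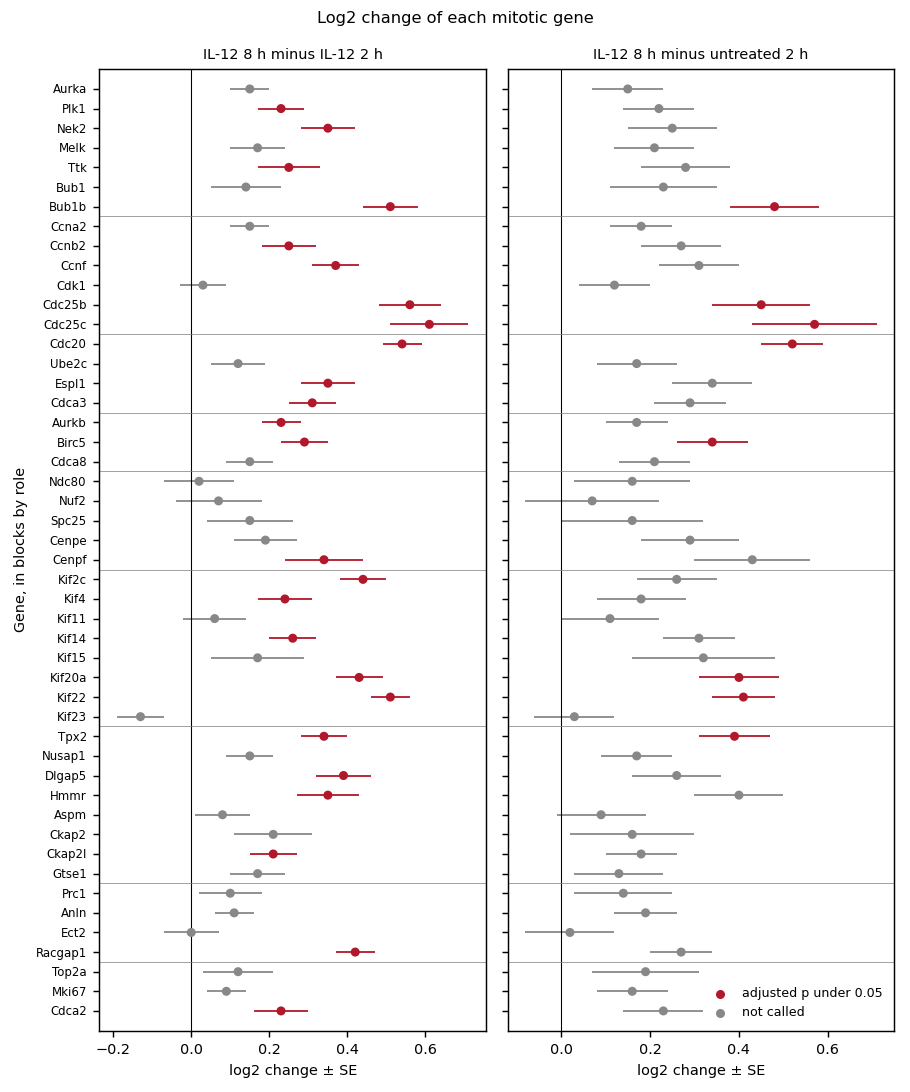
Log2 change ± SE of each of the 48 genes, in blocks by role, for IL-12 8 h against IL-12 2 h (left) and against untreated 2 h (right); red points passed the limma test and grey points did not. On the left 25 genes are red and Kif23 alone lies below 0, at -0.13; on the right 8 are red and all 48 lie above 0.

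At 2 h, IL-12 did not separate the mitosis genes from untreated cells at this precision. No member was called (0 of 48, limma), where 0.0709% of all genes were, and 0 members had an unadjusted p under 0.05, against 4.92% of all genes. Changes ran from -0.18 to 0.16 with a median of 0.02, and 27 were positive and 21 negative. The members with the smallest p were Racgap1 at -0.15 ± 0.07, Kif2c at -0.18 ± 0.09 and Kif23 at 0.16 ± 0.09, each with a limma adjusted p of 0.999. Their values in each array are given above: the untreated arrays lay above the IL-12 2 h arrays 5 and 6 for Racgap1 and Kif2c and below them for Kif23. With a median SE of 0.091, changes of this size were not detectable.

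The members differed between the runs of title numbers about as often as all genes did. Arrays 2 to 4 against arrays 5 to 8 gave 3 members called higher and 8 lower, where 24.3% of all genes were called, 11.8% higher and 12.5% lower. An unadjusted p under 0.05 was found for 17 of the 48, against 37.7% of all genes. The 3 higher were Kif22 at 0.41 ± 0.05 (limma, adjusted p = 6.97e-05), Cdc20 at 0.41 ± 0.05 (limma, adjusted p = 9.43e-05) and Birc5 at 0.27 (adjusted p = 0.00481). The lowest was Cdc25b at -0.56 ± 0.08 (limma, adjusted p = 0.000229), followed by Nusap1 at -0.29, Kif14 at -0.26, Melk at -0.24, Aurkb at -0.19, Plk1 at -0.18, and Anln and Racgap1 at -0.17. For Cdc20, Kif22 and Cdc25b the difference between runs was thus close to that between 2 h and 8 h. The count of 11 calls became 7 without IL-12 2 h array 5 and 7 without IL-12 8 h array 2. Markers of other cell types moved with the runs too. Of 12 measured macrophage and monocyte markers, 4 were lower in arrays 2 to 4, Lyz2 at a log2 of -1.96, and their summed intensity was 981 to 1041 in arrays 2 to 4 against 1372 to 1746 in the IL-12 arrays 5 and 6, 1864 to 2122 in untreated arrays and 1129 at baseline. Of 6 B cell markers, 4 were higher in arrays 2 to 4, Ms4a1 by 1.03, with sums of 1312 to 1552 against 1037 to 1166 in arrays 5 to 8 other than the baseline, at 1528. All 4 NK cell markers were lower in arrays 2 to 4, Ncr1 at a log2 of -0.52, as was Cd8b1, 1 of 2 CD8 markers, at -0.51. Of 5 neutrophil markers 2 were higher and 1 lower, of 5 T cell markers 1 higher and 2 lower, of 5 dendritic cell markers 1 higher and 1 lower, and of 3 erythroid and platelet markers 1 higher. The part of these cells in the run differences was not tested.

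Between 8 h and 2 h of IL-12, 0 of the 12 macrophage markers and 0 of the 6 B cell markers were called by limma, with medians of -0.04 and -0.09. Of the macrophage markers 9 were negative and 3 positive, and of the B cell markers 5 were negative and 1 positive. Of the 5 T cell markers 1 was higher, and 12.6% of all genes were called in this comparison. Within arrays 2 to 4 the macrophage sums were 981 to 982 at 8 h and 995 to 1041 at 2 h, and within arrays 5 and 6 they were 1372 to 1630 and 1481 to 1746. The 5 dendritic cell, 5 neutrophil, 3 erythroid and platelet and 2 CD8 T cell markers also had 0 calls in this comparison, and of 4 NK cell markers 1 was higher and 1 lower. All 5 dendritic cell markers were negative, and of the neutrophil markers 3 were positive and 2 negative. With 12.6% of all genes called, 0 calls among so few markers do not show that these cells were unchanged. Their part in the members' differences was not tested.

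The difference between 8 h and 2 h of IL-12 was present in both runs. Within arrays 2 to 4 it was positive in 47 of 48 genes with a median of 0.27, and within arrays 5 and 6 in 39 with a median of 0.18. All 39 were positive in both. For Cdc20 it was 0.51 and 0.58 in the earlier and later numbers, for Kif22 0.49 and 0.53, for Racgap1 0.48 and 0.35, for Bub1b 0.61 and 0.38, and for Cdc25c 0.71 and 0.49. The test of the difference between the runs, an interaction fitted to the 9 IL-12 arrays, called 0 members in limma, where 1.96% of all genes were called, and 11 members had an unadjusted p under 0.05, against 14.5% of all genes. The smallest p belonged to Ckap2, Bub1 and Kif4. Ckap2, a microtubule-associated protein, had 9.52, 9.42, 9.61, 9.73 and 10.04 at 2 h, 9.93, 9.99, 9.84 and 9.80 at 8 h, 9.66 and 9.93 untreated and 9.74 at baseline. The 2 h array 6 exceeded all 8 h arrays. Its change was 0.44 in the earlier and -0.07 in the later numbers, a difference of 0.51 ± 0.14 (limma, adjusted p = 0.0934). Bub1, a checkpoint kinase, had 10.98, 11.02, 10.90, 11.35 and 11.32 at 2 h, 11.34, 11.24, 11.39 and 11.10 at 8 h, 11.12 and 11.14 untreated and 11.37 at baseline. Its changes were 0.33 and -0.09, differing by 0.41 ± 0.13 (limma, adjusted p = 0.158). Kif4 had 9.62, 9.58, 9.55, 9.91 and 9.95 at 2 h, 9.92, 10.01, 9.99 and 10.02 at 8 h, 9.77 and 10.05 untreated and 9.66 at baseline. Its 2 h arrays 5 and 6 had nearly the 8 h level, and the changes of 0.38 and 0.08 differed by 0.31 ± 0.10 (limma, adjusted p = 0.181). The call changed with single arrays: without IL-12 2 h array 5 Ckap2 passed at 0.67 (adjusted p = 0.0231) and Kif15 at 0.59 (adjusted p = 0.0316), and without IL-12 8 h array 5 Bub1 passed at 0.56 (adjusted p = 0.0356).

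**Figure D4:**
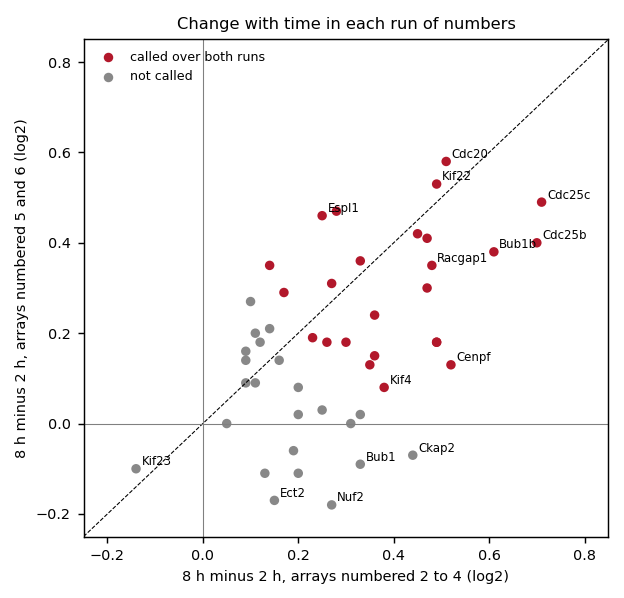
Log2 change from IL-12 2 h to 8 h of each of the 48 genes within arrays 5 and 6 (vertical axis) against that within arrays 2 to 4 (horizontal axis); red genes were called over both runs, and the dashed diagonal marks equal changes. The change is positive in 39 genes on both axes and larger in arrays 2 to 4 for 32.

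The mean of the single baseline array over the 48 genes, 0.054, lay between those of the 2 h arrays and those of the 8 h arrays. With 1 array, the spread is taken from the other groups, and a deviation of that array cannot be told apart from a difference of its condition. It was above every 2 h array, with and without IL-12, for 22 members, and below every 8 h array for 20. The share of all genes in these positions was not computed, so the counts have no background. Untreated cells at 2 h were lower than baseline for 6 members and higher for 0, where 10.2% of all genes were called, 3.96% lower and 6.28% higher. These were Cdc20 at -0.63 ± 0.10 (limma, adjusted p = 0.000878), Kif22 at -0.54 ± 0.09 (adjusted p = 0.00212), Bub1b at -0.54 ± 0.13 (adjusted p = 0.0142), Espl1 at -0.45 (adjusted p = 0.0246), Birc5 at -0.39 (adjusted p = 0.0313) and Cdc25c at -0.61 (adjusted p = 0.0458). The median of the members was -0.13, against -0.035 over all genes. The change was negative in 33 of the 48 and positive in 15, where 42.9% of all genes were positive. An unadjusted p under 0.05 was found for 12 of the 48, against 22.8% of all genes. Markers of other cell types differed in the same comparison. Lyz2 was higher in untreated cells, at 2.13, as was Cd68, at 0.74. Of the 12 macrophage markers 8 were positive and 4 negative, with a median of 0.06. Pf4 and Ms4a1 were lower, at -1.96 and -1.44. Of the 3 erythroid and platelet markers 2 were negative and 1 positive. All 6 B cell markers were negative, and all 4 NK markers were positive. Their part in the members' differences was not tested. The calls depend on its place among the runs. Its values correlated across genes at a median r of 0.993 with arrays 2 to 4 and 0.989 with the other arrays of its own number run. Given the run of arrays 2 to 4 instead, an alternative chosen after seeing the data, 0 members were called, Cdc20 stood at -0.22 (limma, adjusted p = 0.539), Kif22 at -0.12 (adjusted p = 0.812) and Bub1b at -0.50 (adjusted p = 0.155). Without untreated array 7 the count of calls was 2.

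Other genes of the pathway were taken from a list of further G2/M and mitosis genes, also chosen with earlier results of these data known. Of 56 measured, 21 were called higher at 8 h than at 2 h of IL-12 and 0 lower, and 35 did not pass. Over all genes, 6.27% were called higher and 6.36% lower in this comparison. The median was 0.19, and 8 of the 56 were negative, down to -0.23. Pimreg, a regulator of the metaphase to anaphase transition, changed by 0.71 ± 0.08 (limma, adjusted p = 8.22e-05), Cdkn3, a phosphatase of cyclin-dependent kinases, by 0.49 ± 0.06 (limma, adjusted p = 9.61e-05), and Depdc1b by 0.62 ± 0.08 (limma, adjusted p = 0.00012). Of 29 measured G1/S and DNA replication genes, 1 was higher, Fen1, the flap endonuclease, at 0.37 ± 0.08 (limma, adjusted p = 0.00926), and 1 lower, Ccne2, cyclin E2, at -0.21 ± 0.05 (limma, adjusted p = 0.0186). Tyms, thymidylate synthase, stood at 0.16 (adjusted p = 0.0801), and the median was 0.04. Of 22 regulators of mitotic transcription and mitotic entry, 4 were higher and 1 lower, with a median of 0.00. Foxm1, a transcription factor of G2/M genes, changed by 0.20 ± 0.06 (limma, adjusted p = 0.04), Lin37, a MuvB subunit, by 0.23 ± 0.06 (limma, adjusted p = 0.0237), and Fzr1, the other activator of the anaphase-promoting complex, by 0.19 (adjusted p = 0.0491). Cdkn1b, an inhibitor of cyclin-dependent kinases, changed by 0.55 ± 0.10 (limma, adjusted p = 0.0021). It had 9.74, 9.79 and 9.96 in 2 h arrays 2 to 4 and 10.72 and 10.55 in 8 h arrays 2 and 3. In arrays 5 and 6 the step was smaller, from 10.39 and 10.43 to 10.67 and 10.63, with 10.51 and 10.50 untreated. The interaction of time and number run called 2 of the 22 regulators, each with a more positive change in arrays 2 to 4, where 0.972% of all genes were so called. Nfya, a subunit of the factor that binds CCAAT boxes, was lower, at -0.31 (adjusted p = 0.0433). Against untreated cells, 6 of the 56 further mitosis genes were higher at 8 h and 0 lower, and 0 genes of the other 2 lists were called. Over all genes, 1.04% were called higher there and 2.13% lower. Between the number runs, 14 of the 29 G1/S genes were higher in arrays 2 to 4 and 0 lower, with a median of 0.18. Over all genes, 11.8% were called higher and 12.5% lower between the runs.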

How the data were processed

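The authors deposited linear intensity values for 24922 probe sets. Per the submitters' processing notes they used Affymetrix Power Tools and RMA, which corrects background, equalises array distributions and summarises probes; the versions, probe annotation and build were not given in the sources used. Intensities were log2-transformed and not normalized again (array medians 160.6 to 167.3). The platform annotation gave 1 symbol to 21425 probe sets, several to 1399 and none to 2098, and 0 of the deposited columns belonged to other samples. The probe set with the highest mean stood for each of 19752 genes. All 12 arrays entered 1 model (4 group means and the number run) in limma 3.58.1 (lmFit, eBayes; R 4.3.3), which left 7 residual degrees of freedom beside 6.84 prior ones. The interaction used the 9 IL-12 arrays. The fit was also run on simulated data with independent noise between arrays and a shift between the number runs. The outcome is not given here, and such data do not bear on extra spread of single arrays. Python 3.11.15 and matplotlib 3.10.9 drew the plots.

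The members, gene lists and cell type markers were chosen with earlier results of these data known. Values in every array are given for at most 12 members called at 8 h, by p against IL-12 2 h, for the 3 with the smallest p in each other comparison, and for the member with the smallest p in each role. The 3 genes with the smallest p of each pathway list are named, and promoters are printed for at most 6 members by p at 8 h against untreated cells. Fzr1 and Nfya were added after their values were seen, to name all 5 called regulators.

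Deviations of same-numbered IL-12 arrays from their group means correlated at 0.365, 0.3, 0.519 and 0.372 (numbers 2, 3, 5 and 6). Once the run means were removed as well, the correlations were -0.264, -0.177, 0.025 and 0.025. Where a group holds 2 arrays of a run, their deviations are mirror images. The values of numbers 5 and 6 are therefore equal by construction, and those of numbers 2 and 3 are not separate checks either. These correlations cannot decide whether same-numbered arrays are pairs, and the pairing by number in the block fit is an assumption. Untreated arrays share no number with the IL-12 arrays. Alternatives were no run term, the number as a replicate block, arrays 5 to 8 alone, pooled baseline, quantile normalization, genes above the median, the mean of probe sets and each array left out. Of the members, Kif14 has a second, dim probe set, at a log2 of 4.60 to 4.77 in all arrays. Top2a has 2 more that name another gene too and were left out.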

Additional observations from a re-analysis of the deposited data

Results flagged for a closer look

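In 6 of 96 combinations of a gene and an IL-12 group, 1 array lay far from the others by Dixon's criterion, which chance alone meets in about 5% of groups. At 8 h of IL-12 these were Aurka, lowest in array 2 at 11.27, Cdc25c, lowest in array 5 at 8.42, Ube2c, highest in array 5 at 11.95, and Cenpf, lowest in array 6 at 9.66. The array means over the 48 genes, also examined in both groups, held no such array. At 2 h of IL-12, array 6 was the highest for Cenpe at 10.6 and for Top2a at 12.46. The criterion sets the gap to the next array against the range of the group, so that small gaps can pass. In log2 the gap was 0.06 for Aurka and 0.1 for Ube2c, and 0.28 to 0.4 for the other flagged genes.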

How the results depend on the processing

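No called member changed sign in any alternative run. The median at 2 h against untreated cells, 0.019, did: it was -0.011 without the run term and -0.014 with the baseline pooled. Members without a call turned in at least 1 setting, 8 of them for 8 h against 2 h of IL-12 and 8 for 8 h against untreated cells. Nuf2 was the lowest for 8 h against 2 h in arrays 5 to 8 alone, at -0.18, and Cdc25b went from 0.13 to -0.42 against baseline with the baseline given the other run. Higher members at 8 h against 2 h of IL-12 numbered 13 without the run term, 14 with the replicate block, 3 among arrays 5 to 8 alone and 17 to 25 when 1 array was left out. Against untreated cells the 8 calls at 8 h became 2 without the run term (median change 0.174), 1 among arrays 5 to 8 alone, 14 when only genes above the median were tested, 0 with the baseline pooled with untreated cells, and 2 to 11 with 1 array left out (median 0.203 to 0.308). The 6 calls of untreated cells against baseline became 0 without the run term, 3 among arrays 5 to 8 alone, 0 with the baseline given the other run, and 2 to 7 with 1 array left out (median -0.145 to -0.086). With 1 array left out, the median at 2 h against untreated cells was -0.040 to 0.063, the number run gave 7 to 14 calls and the interaction 0 to 2. The interaction gave 1 call, Ckap2 at 0.51 (limma, adjusted p = 0.0487), with only genes above the median. With the mean of probe sets, 24 of the 25 calls at 8 h against 2 h of IL-12 were kept, and 10 of the 11 between the number runs. Beyond fewer arrays or fewer genes tested, the cause of these shifts was not tested. The share of all genes called in each of these settings is not given.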
